A study of Sus scrofa with 6 samples.

Results

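Stanniocalcins, activins and follistatins are secreted regulators of growth and tissue remodeling, and 10 of their genes were examined here among the 13288 genes measured in minipig ventricle. They comprised the stanniocalcins STC1 and STC2, the activin subunits INHBA and INHBB, the follistatin gene FST and its relatives FSTL1 and FSTL3, and the activin receptors ACVR1B, ACVR2A, and ACVR2B. The genes were taken by symbol, and the set was chosen because STC1 and INHBB were much lower after aortic constriction. Differences between the groups are therefore given for the 10 genes as a description, without a P-value. Ventricular RNA was sequenced from 3 sham and 3 DAC (descending aortic constriction) Tibetan minipigs, and levels were given as FPKM, fragment numbers scaled by transcript length and by the size of the library. All animals were male, and their age is not given in the sources used here. DAC narrowed the descending thoracic aorta and raised the pressure load on the left ventricle, sham minipigs had the chest opened without constriction, and tissue was taken at week 12. The labels call the samples ventricular without naming the ventricle, and each sample came from 1 minipig.

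Activins are dimers of inhibin beta subunits, so that INHBA encodes the subunit of activin A and INHBB that of activin B. They bind the type II receptors ACVR2A and ACVR2B, which recruit ACVR1B and lead to phosphorylation of SMAD2 and SMAD3, and this pathway is known for its part in fibrosis and growth of the heart. Follistatin and FSTL3 bind activins outside the cell and keep them from their receptors. Stanniocalcins are glycoprotein hormones first known from calcium control in fish. In mammals they act near the cells that release them, and they inhibit pappalysins, the proteases that free insulin-like growth factors (IGFs) from their binding proteins.

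Sums of FPKM lay between 281377 and 308771 per minipig. Mitochondrially encoded genes made up 24.0 to 25.3% of the sum in sham minipigs and 27.2, 32.8, and 27.1% in DAC replicates 4, 5, and 6. Of the 8 cardiomyocyte markers, 6 were listed, and their summed level was 12492 to 13509 FPKM in sham and 12081 to 14995 FPKM in DAC minipigs. In bulk tissue, fewer cells of one type and less RNA per cell cannot be told apart.

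STC1, whose human and rodent counterparts act as local signals in heart and vessels, was the gene that differed most. It stood at 11.6, 16.2, and 25.0 FPKM in sham replicates 1, 2, and 3, and at 1.36, 1.09, and 4.88 FPKM in DAC replicates 4, 5, and 6. The lowest sham minipig was above the highest DAC minipig, and DAC replicate 6 kept the most STC1 of its group. The means were 17.6 ± 6.83 and 2.44 ± 2.11 FPKM (SD, n = 3 each), a 7.20-fold lower level in DAC. On the log2(FPKM + 1) scale, the difference of DAC minus sham was −2.53 with a standard error (SE) of 0.43, the largest in size among the 11029 genes tested. This value is one of those the set was selected on. The gene, ENSSSCG00000009642, lies on the minus strand at chr14:7950389-7961566 (susScr11).

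STC2, the other stanniocalcin and a tight inhibitor of the pappalysin PAPP-A, differed less. Its levels were 16.1, 22.9, and 25.1 FPKM in sham replicates 1 to 3 and 11.1, 12.5, and 20.5 FPKM in DAC replicates 4 to 6. The groups overlapped, because DAC replicate 6 was above sham replicate 1. The means were 21.4 ± 4.68 and 14.7 ± 5.09 FPKM, and the log2 difference was −0.53 (SE 0.25), from −0.37 without DAC replicate 4 to −0.78 without DAC replicate 6. STC2 (chr16:50989432-51004484, plus strand) was thus the more abundant stanniocalcin in DAC minipigs, whereas sham replicate 3 had about as much STC1 as STC2.

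INHBB, the subunit of activin B, was the other gene the set was chosen on. Its levels were 7.24, 7.58, and 13.8 FPKM in sham replicates 1 to 3 and 1.19, 1.61, and 3.50 FPKM in DAC replicates 4 to 6. Every sham minipig was above every DAC minipig, with sham replicate 3 and DAC replicate 6 the highest of their groups, as for STC1. The means of 9.56 ± 3.72 and 2.10 ± 1.23 FPKM differed 4.55-fold, and the log2 difference was −1.78 (SE 0.32), which placed INHBB 10 in order of size among the genes tested. The gene lies on the minus strand at chr15:30999520-31004405.

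INHBA, the subunit of activin A, was close to the limit of the table, in which no gene had less than 0.500 FPKM in its highest sample. It was at 0.656, 0.812, and 0.442 FPKM in sham replicates 1 to 3 and at 0.885, 0.240, and 1.31 FPKM in DAC replicates 4 to 6. The DAC group enclosed the sham group, and only DAC replicate 6 reached 1 FPKM. INHBA did not pass the filter of 1 FPKM in 3 samples, and its log2 difference of 0.11 (SE 0.23) changed sign to −0.09 without DAC replicate 6. The table places INHBA at chr18:52889684-52900967, where the RefSeq table used here lists no gene of that symbol.

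**Figure D1:**
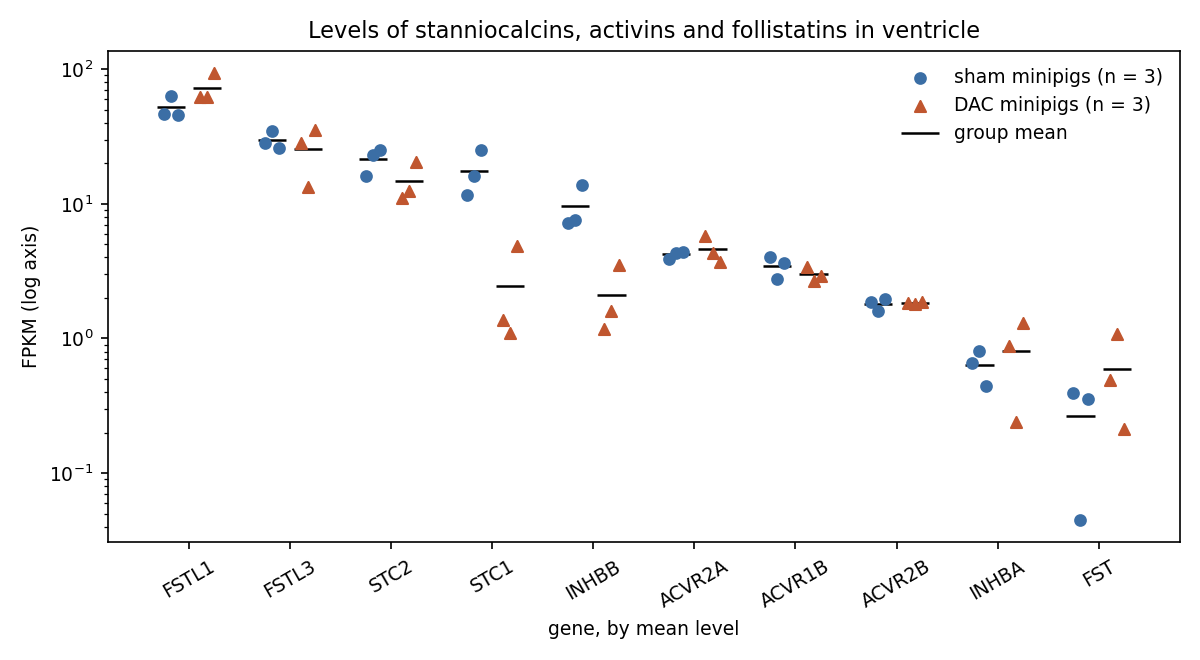
FPKM (log axis) of the 10 genes in each sham minipig (circles, n = 3) and each DAC minipig (triangles, n = 3), with the group mean as a line. STC1 and INHBB are the genes whose sham values all lie above their DAC values, while FSTL1 is the most abundant of the 10 in every minipig.

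Of the antagonists FST and FSTL3, neither separated the groups. FST, which encodes follistatin itself, was low, at 0.393, 0.0449, and 0.353 FPKM in sham replicates 1 to 3 and 0.488, 1.08, and 0.212 FPKM in DAC replicates 4 to 6. Sham replicate 2 was lowest, DAC replicate 5 was the only minipig at 1 FPKM or more, and the groups overlapped. FST did not pass the filter, and its log2 difference was 0.31 (SE 0.22) with a pseudocount of 1 and 0.91 with a pseudocount of 0.1. It lies at chr16:32805874-32811421 on the plus strand.

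FSTL3, a secreted binder of activins and myostatin, was by far the more abundant of these antagonists. It was at 28.1, 34.8, and 26.2 FPKM in sham replicates 1 to 3 and at 28.1, 13.4, and 35.4 FPKM in DAC replicates 4 to 6. DAC replicate 5 alone was low, and the other DAC minipigs lay within or just above the sham range. The means were 29.7 ± 4.56 and 25.6 ± 11.2 FPKM, with a log2 difference of −0.30 (SE 0.33) that became 0.09 without DAC replicate 5. The gene lies at chr2:77656658-77662613 on the minus strand, and RefSeq also has PRSS57 within this interval.

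FSTL1, a secreted glycoprotein with a follistatin-like domain that is made by stromal cells, was the most abundant of the 10 genes. It was at 46.4, 63.3, and 46.0 FPKM in sham replicates 1 to 3 and at 62.3, 62.0, and 93.5 FPKM in DAC replicates 4 to 6. The groups overlapped through sham replicate 2, and DAC replicate 6 was highest. The means were 51.9 ± 9.87 and 72.6 ± 18.1 FPKM, and the log2 difference was 0.46 (SE 0.20), from 0.27 without DAC replicate 6 to 0.61 without sham replicate 2. FSTL1 lies at chr13:139847438-139901960 on the plus strand.

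Of 8 fibroblast markers tested, LUM, COL1A1, and COL1A2 rose, none fell, and the other 5 were not DEGs. LUM, COL1A1, and COL1A2 had limma adjusted P of 0.482, 0.379, and 0.337. Among all genes tested, 8.51% were DEGs (unadjusted P under 0.05 in limma), with 3.25% higher in DAC. The summed level of the 8 was 383 to 440 FPKM in sham and 516 to 603 FPKM in DAC minipigs, and sham replicate 2, which had the most FSTL1 of its group, had the lowest sum. FSTL1 as a percentage of that sum was 11.0, 16.5, and 10.5% in sham replicates 1 to 3 and 12.1, 11.6, and 15.5% in DAC replicates 4 to 6, with overlapping groups. The part of the fibroblast markers in the level of FSTL1 was not tested.

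The receptors differed little between groups. ACVR1B, the type I receptor that signals for activins, was at 4.05, 2.75, and 3.61 FPKM in sham replicates 1 to 3 and 3.42, 2.67, and 2.90 FPKM in DAC replicates 4 to 6. Its log2 difference was −0.15 (SE 0.15), with group means of 3.47 ± 0.663 and 3.00 ± 0.384 FPKM, and the groups overlapped. It lies at chr5:17314290-17350722 on the plus strand.

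ACVR2A, a type II receptor, was at 3.91, 4.35, and 4.41 FPKM in sham replicates 1 to 3 and 5.80, 4.30, and 3.71 FPKM in DAC replicates 4 to 6. The sham minipigs lay within the range of the DAC minipigs, and the log2 difference of 0.09 (SE 0.15) turned to −0.06 without DAC replicate 4. ACVR2A is on the minus strand at chr15:4173805-4259706 and overlaps ORC4 in RefSeq.

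ACVR2B, the second type II receptor, had the smallest SE of the 10 genes. It was at 1.88, 1.61, and 1.96 FPKM in sham replicates 1 to 3 and 1.83, 1.80, and 1.85 FPKM in DAC replicates 4 to 6, so that the DAC values fell inside the sham range. The log2 difference was 0.01 (SE 0.11), and the gene lies at chr13:23237699-23267382 on the plus strand.

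Of the 10 genes, 5 had a lower and 5 a higher mean in DAC minipigs. Their median log2 difference was −0.07, and that of all genes tested was −0.02. The filter on low levels kept 8 of the 10. Among all 11029 genes tested, 8.51% were DEGs (differentially expressed genes, unadjusted P under 0.05 in limma), with 5.27% lower and 3.25% higher in DAC. Without mitochondrially encoded genes, 502 genes were higher and 408 lower, against 358 and 581 with all genes. STC1 and INHBB were the only members whose groups did not overlap, a pattern found in 14.9% of all genes tested. As the set was selected on this contrast, nothing is read from these counts. The smallest Benjamini-Hochberg adjusted P among all genes tested by limma was 0.106, so that no gene passed after adjustment, while 939 had an unadjusted P under 0.05.

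**Figure D2:**
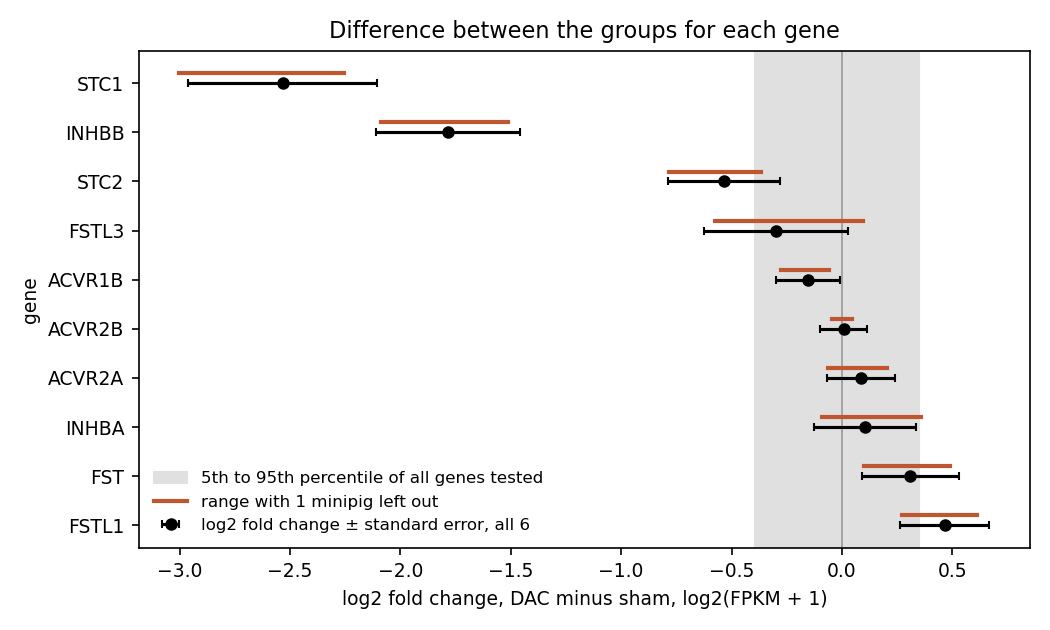
Log2 difference of DAC minus sham on the log2(FPKM + 1) scale for each of the 10 genes, with the standard error as a black bar, the range with 1 minipig left out as an orange bar, and the range from the 5th to the 95th percentile of all genes tested shaded. STC1 at −2.53 and INHBB at −1.78 stand far outside the shaded range of −0.40 to 0.35, and the ranges of INHBA, FSTL3, ACVR2A, and ACVR2B include 0.

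In sham minipigs, FSTL1 had the highest mean level in FPKM, followed by FSTL3, STC2, STC1, INHBB, ACVR2A, ACVR1B, ACVR2B, INHBA, and FST. Neighbours in this order overlapped for STC2 and STC1, for STC1 and INHBB, and for ACVR2A and ACVR1B. In DAC minipigs, STC1 and INHBB stood below ACVR2A and ACVR1B, and the other genes kept their order. There, FSTL3 overlapped STC2, ACVR1B overlapped STC1, STC1 overlapped INHBB, INHBB overlapped ACVR2B, and INHBA overlapped FST.

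Ratios of FPKM within a minipig set the genes side by side. They were chosen after the levels were seen, and those with STC1 or INHBB carry the difference that the set was selected on, so that they are a description only. STC1 reached 0.720, 0.705, and 0.999 of the level of STC2 in sham replicates 1 to 3, and 0.123, 0.0873, and 0.237 in DAC replicates 4 to 6. STC2 was at or above the level of STC1 in every minipig. INHBB made up 91.7, 90.3, and 96.9% of the summed level of INHBA and INHBB in sham replicates 1 to 3, and 57.3, 87.1, and 72.8% in DAC replicates 4 to 6. INHBB remained the larger share in all 6 minipigs, although the low levels of INHBA make this share imprecise.

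The level of the activin B subunit relative to its antagonist FSTL3 was 0.258, 0.218, and 0.529 in sham replicates 1 to 3 and 0.0423, 0.120, and 0.0990 in DAC replicates 4 to 6. FSTL3 was the more abundant of the pair in every minipig, and the groups did not overlap. FSTL1 was 1.66, 1.82, and 1.76 times FSTL3 in sham and 2.22, 4.62, and 2.64 times FSTL3 in DAC minipigs, where the highest ratio belonged to DAC replicate 5 with its low FSTL3. ACVR2A was 2.08, 2.70, and 2.25 times ACVR2B in sham and 3.17, 2.39, and 2.0 times ACVR2B in DAC minipigs, so that the balance of the type II receptors overlapped between groups.

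**Figure D3:**
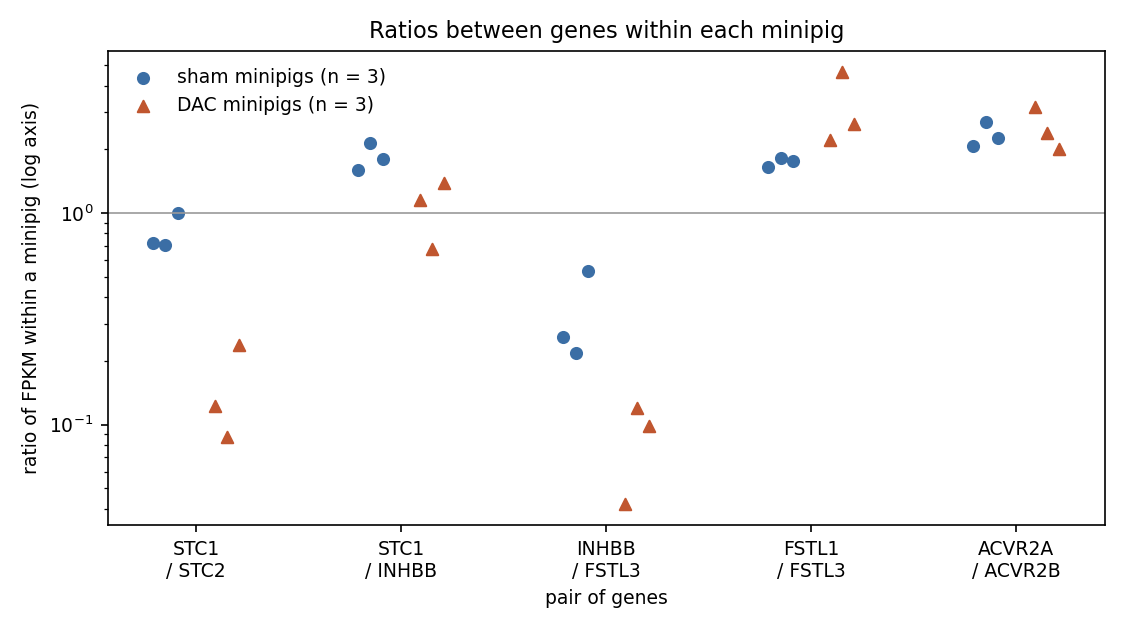
Ratio of the FPKM of 2 genes within each minipig (log axis) for sham (circles, n = 3) and DAC (triangles, n = 3). STC1 over STC2 and INHBB over FSTL3 are lower in every DAC minipig, FSTL1 over FSTL3 is higher in every DAC minipig, and ACVR2A over ACVR2B overlaps.

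Some of the spread within the groups was shared by several genes. STC1, STC2, and INHBB were all lowest in sham replicate 1 and highest in sham replicate 3 and, among DAC minipigs, highest in DAC replicate 6. This pattern, noticed after the values were seen, was found in 7.08% of all genes tested. DAC replicate 5 had the largest mitochondrial share, and the part of that share in the order of the minipigs was not tested.

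Within each group, the summed endothelial cell markers had the same order of minipigs as STC1, but over all 6 minipigs they did not, because DAC replicate 6 was above sham replicate 1. INHBB and STC2 had that order in sham minipigs only, as their lowest DAC minipig was replicate 4 and not replicate 5. How many of all genes share the order was not computed. The summed level of the endothelial markers was 142, 195, and 197 FPKM in sham replicates 1 to 3 and 139, 122, and 183 FPKM in DAC replicates 4 to 6, with overlapping groups. Of the 8 markers tested, KDR, a receptor for VEGF, rose, whereas VWF, the clotting factor carrier, and CLDN5, a tight junction protein, fell. These calls stand beside 8.51% DEGs among all genes tested. The groups of KDR overlapped, and those of VWF and CLDN5 did not (limma adjusted P = 0.584, 0.508, and 0.482). STC1 was 8.15, 8.29, and 12.7% of that sum in sham and 0.981, 0.899, and 2.66% in DAC minipigs, and INHBB was 5.09, 3.89, and 7.04% in sham and 0.855, 1.32, and 1.91% in DAC minipigs. As STC1 and INHBB were selected for their low levels in DAC, nothing is read from these percentages, and the part of the endothelial markers was not tested.

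The genes with the most similar profile were found by the root mean square (RMS) difference of log2(FPKM + 1) after each gene's mean over the 6 minipigs was subtracted, a measure that includes the contrast the set was selected on. INHBB was the gene nearest to STC1, with an RMS difference of 0.44, against a median of 1.38 for all genes. SLPI, a secreted protease inhibitor, was next at 0.61, followed by the tetraspanin TSPAN2 at 0.66 and CLDN5 at 0.70. For INHBB, the nearest were CLDN5 at 0.34, the hyaluronidase HYAL2 at 0.35, SLPI at 0.36, and TSPAN2 at 0.38, against a median of 0.99. A gene with the same level in all 6 minipigs would stand at 1.38 from STC1 and at 0.98 from INHBB.

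SLPI stood at 9.58, 12.6, and 19.2 FPKM in sham replicates 1 to 3 and at 4.72, 2.34, and 6.59 FPKM in DAC replicates 4 to 6. CLDN5 stood at 8.30, 12.3, and 18.8 FPKM in sham and at 4.14, 3.78, and 6.88 FPKM in DAC minipigs. Both were highest in sham replicate 3 and in DAC replicate 6, and neither overlapped between groups. As both were picked for likeness to STC1 and INHBB over the same 6 minipigs, nothing is read from this. HYAL2, with means of 37.1 ± 7.28 and 15.3 ± 3.05 FPKM, did not overlap either, whereas TSPAN2 overlapped and was at 3.67 ± 2.85 and 0.759 ± 0.884 FPKM.

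**Figure D4:**
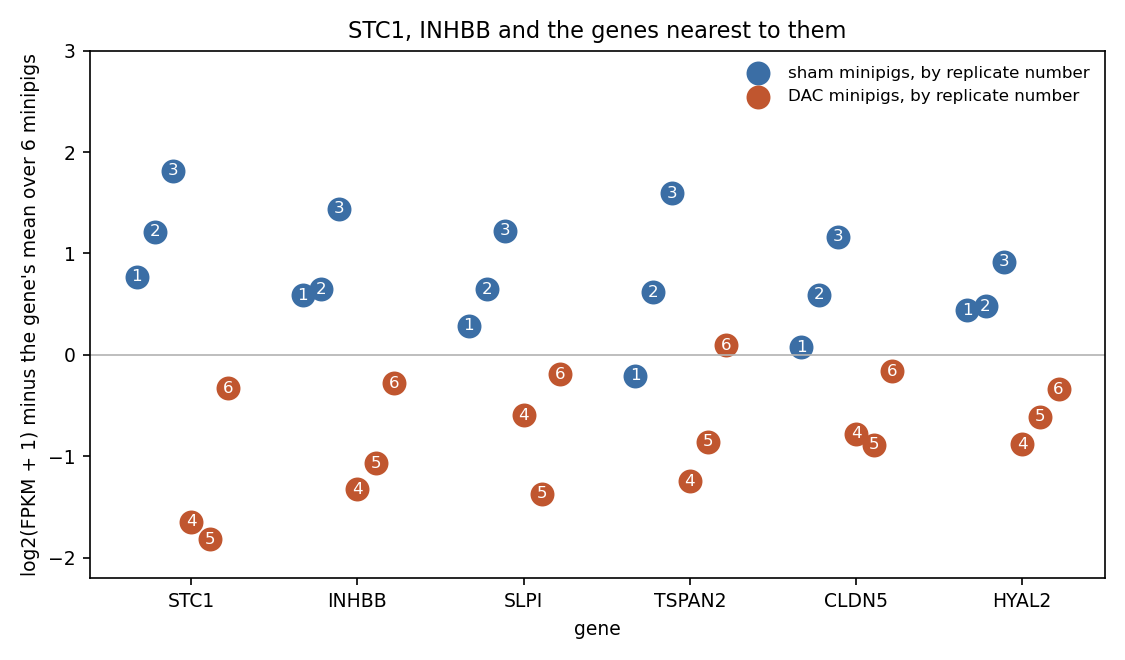
Log2(FPKM + 1) of STC1, INHBB, and the 4 genes nearest to them, each minus its mean over the 6 minipigs, with sham (blue) and DAC (orange) minipigs marked by replicate number. Sham replicate 3 is the highest point of all 6 genes and DAC replicate 6 the highest DAC point, and the groups overlap for TSPAN2. The 4 genes were picked on these same values.

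Other genes of these pathways were then examined as 9 lists, in which 79 genes were tested. Of these, 4 rose and 3 fell, or 8.86%, close to the 8.51% of all genes tested, and their median log2 difference was 0.00 against −0.02 for all genes. The counts moved with single minipigs, from 1 rising gene without sham replicate 1 or DAC replicate 4, and 2 without sham replicate 3, to 9 without DAC replicate 5, and 5 genes fell without sham replicate 2. None of the genes named from these lists passed limma's test after Benjamini-Hochberg adjustment.

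Among the ligands and subunits, no DEG was found. INHA, which pairs with the beta subunits to form inhibins, was at 8.89 ± 5.98 FPKM in sham and 9.98 ± 3.62 FPKM in DAC minipigs, but it overlaps OBSL1, a muscle gene, and the counting of shared reads is not given in the sources used here. Of the other ligands of the activin type II receptors, 5 of 11 were tested. BMP6 had the smallest P of them and was at 3.22 ± 0.432 and 2.50 ± 0.348 FPKM (log2 difference −0.27, SE 0.13, limma adjusted P = 0.602), and the others named by rule, BMP5, BMP4, and GDF11, had log2 differences of −0.18, −0.10, and 0.09. Without DAC replicate 4, BMP6 became a DEG at −0.35. BMP6 and GDF11, and in the lists that follow IGFBP6 and CHRD, also overlap another gene of the table, so that their levels are uncertain in the same way.

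Among partner receptors and co-receptors, 2 of 9 tested genes rose and none fell, beside 3.25% higher among all genes tested. Nothing is read from a count in so short a list. TGFBR3, the co-receptor betaglycan that binds inhibins and TGF-beta, was at 7.07, 7.71, and 7.23 FPKM in sham replicates 1 to 3 and 10.5, 8.59, and 9.43 FPKM in DAC replicates 4 to 6, without overlap (log2 difference 0.33, SE 0.11, limma adjusted P = 0.529). BMPR1A, a type I receptor for BMPs, rose from 4.06 ± 0.262 to 5.16 ± 0.565 FPKM (log2 difference 0.28, SE 0.11, limma adjusted P = 0.584). Its interval overlaps MMRN2 in RefSeq. TGFBR1 and BMPR1B, at 0.22 and −0.43, were not DEGs, although TGFBR1 became one at 0.34 without DAC replicate 5, and BMPR1B was at −0.16 without sham replicate 3 and −0.65 without sham replicate 2. Leaving out sham replicate 1, sham replicate 3, or DAC replicate 4 ended the call of TGFBR3, and leaving out any one sham minipig or DAC replicate 4 ended that of BMPR1A.

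SMADs, which carry the signal to the nucleus, and their regulators held no DEG among 17 tested genes, and their log2 differences lay between −0.24 and 0.25. SMAD2 and SMAD3, the SMADs used by activins, were at 3.43 and 13.0 FPKM in sham and at 3.90 and 15.0 FPKM in DAC minipigs on average. SMAD1, SMAD5, SMAD3, and the SMAD phosphatase PPM1A had log2 differences of 0.20, 0.25, 0.18, and 0.17. SMAD3 became a DEG at 0.32 without DAC replicate 5 and SMAD5 at 0.39 without sham replicate 2. Among other extracellular antagonists, 5 of 13 genes were tested and none was a DEG. WFIKKN2, which binds myostatin and GDF11, was at 29.6, 32.8, and 20.2 FPKM in sham replicates 1 to 3 and 25.0, 8.11, and 22.2 FPKM in DAC replicates 4 to 6, low in DAC replicate 5 as FSTL3 was (log2 difference −0.67, SE 0.40, limma adjusted P = 0.661). Without DAC replicate 5, the difference of WFIKKN2 was −0.19. IGSF1, NBL1, and CHRD were at −0.13, 0.06, and 0.04.

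The next list held DIP2A besides genes for proteins with a follistatin-like domain. Of its 9 tested genes, SPOCK2 fell and none rose, beside 8.51% DEGs among all genes tested. SPOCK2, an extracellular proteoglycan, was at 6.58, 16.8, and 14.0 FPKM in sham replicates 1 to 3 and 5.70, 4.86, and 2.10 FPKM in DAC replicates 4 to 6, which placed every DAC minipig below the sham group (log2 difference −1.35, SE 0.39, limma adjusted P = 0.505). SPOCK2 was not a DEG with its variance estimated on its own. SPARC, a collagen-binding matrix protein, was at 177 ± 18.7 and 222 ± 39.1 FPKM (log2 difference 0.31, SE 0.16, limma adjusted P = 0.628). DIP2A, a reported receptor for FSTL1, and the protease HTRA1 had log2 differences of −0.34 and 0.26. Without sham replicate 3 both became DEGs, at −0.57 and 0.47, and SPARC became one at 0.47 without DAC replicate 5 and at 0.43 with quantile normalization.

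Stanniocalcins act on the pappalysins and through them on IGF binding proteins. Of 8 tested genes of this axis, 1 rose and 1 fell, beside 8.51% DEGs among all genes tested. IGFBP2, an IGF binding protein, was at 8.39, 6.73, and 14.8 FPKM in sham replicates 1 to 3 and 4.08, 1.23, and 3.07 FPKM in DAC replicates 4 to 6. All DAC values were below the sham values, and the fall was −1.55 on the log2 scale (SE 0.36, limma adjusted P = 0.462). PAPPA, which encodes PAPP-A, was low but rose from 1.07 ± 0.190 to 1.61 ± 0.280 FPKM without overlap (log2 difference 0.33, SE 0.13, limma adjusted P = 0.584). IGF1, the growth factor itself, was at 1.28 ± 0.405 and 1.86 ± 0.364 FPKM and IGFBP6 had a log2 difference of −0.34, and neither was a DEG. PAPPA was not a DEG without sham replicate 1, sham replicate 2, DAC replicate 4, or DAC replicate 5, nor with quantile normalization or sample weights. IGF1 became a DEG at 0.48 without sham replicate 1.

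**Figure D5:**
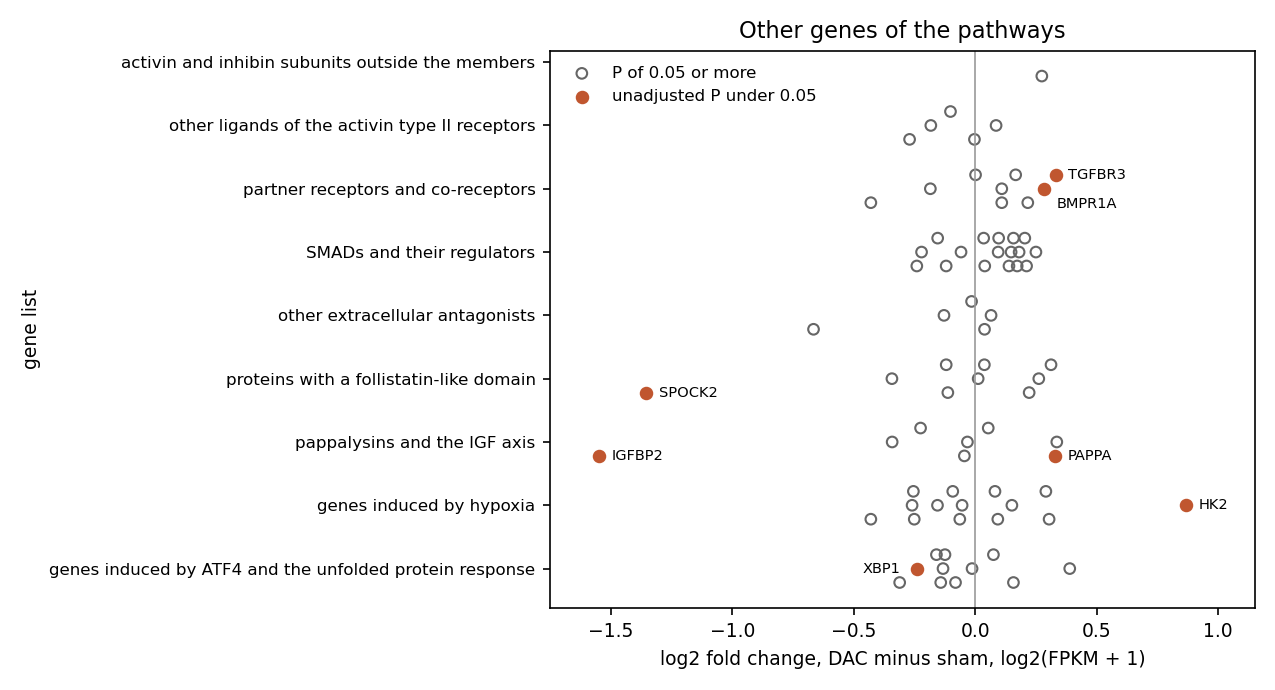
Log2 difference of DAC minus sham for each tested gene of 9 lists around the stanniocalcin, activin, and follistatin genes, with DEGs (unadjusted P under 0.05 in limma) filled and named. Most genes lie near 0, IGFBP2 at −1.55 and SPOCK2 at −1.35 are the lowest, and HK2 at 0.87 is the highest.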

How the data were processed

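The authors deposited FPKM of 13288 genes in ventricle of 3 sham and 3 DAC minipigs, with 1 column per minipig. The submitters' processing notes name HISAT2 and susScr11, and the counting program and its handling of shared reads are not given in the sources used here. FPKM does not give read numbers, so the depth is unknown and precision rests on the spread between minipigs. Where the deposited table held no symbol, a table of gene identifiers supplied it (520 genes). The positions of 9 of the 10 members matched their symbol in RefSeq. No protein or promoter sequence was used here.

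Values were compared as log2(FPKM + 1) with limma 3.58.1 (R 4.3.3), using a linear model and its moderated test, in which the variance followed the mean level. The test took the 11029 genes that reached 1 FPKM in 3 or more samples. INHBA and FST took their difference and SE from the same fit without the filter. DEGs had an unadjusted P under 0.05, the threshold of the study, and Benjamini-Hochberg adjustment covered every gene that was tested. Only the limma fit was run on simulated data, without the filter, and the other steps were not. Figures used matplotlib 3.10.9 (Python 3.11.15).

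The genes named are the 10 members, up to 4 tested genes with the smallest P of each of 9 pathway lists, and the 4 genes nearest to STC1 and to INHBB. SMAD2, and the markers named, were chosen after their values were seen. Members, the pathway lists and the 7 marker lists were chosen with earlier results of these data known. Results were recomputed with median scaling, with quantile normalization, without mitochondrially encoded genes, with the filter dropped or raised to 5 FPKM, with sample weights, with gene-wise variance, with a pseudocount of 0.1, and with 1 minipig removed at a time.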

Additional observations from a re-analysis of the deposited data

How the results depend on the processing

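The comparison was unpaired, because different minipigs were assigned at random to sham or DAC surgery and no pairs are described. STC1 and INHBB kept their direction in every alternative run, and with 1 minipig left out their log2 differences were −3.00 to −2.26 and −2.09 to −1.51. No DEG call is given for the members, as the set was selected on this contrast. With a minimum of 5 FPKM, 579 genes were DEGs (165 higher), and 1 gene of the pathway lists rose. Leaving out 1 minipig gave 600 to 1029 DEGs, 359 to 674 of them lower, of which the counts of 600 and 359 were without sham replicate 1 and a count of 387 lower was without sham replicate 3. In the pathway lists, 1 to 9 genes then rose and 2 to 5 fell. The share of DEGs that were lower was 61.9%, 52.0% with median scaling, 44.8% without mitochondrially encoded genes, 71.5% with a minimum of 5 FPKM, and 50.8% without DAC replicate 5. FST was at 0.91 with a pseudocount of 0.1. The sign turned in some samples left out for INHA (−0.14 to 0.73), BMP4 (−0.19 to 0.067), NBL1 (−0.13 to 0.32), and CHRD (−0.13 to 0.23). The cause was not tested. The read depth is unknown, and a comparison of 3 with 3 minipigs cannot give an exact permutation P under 0.1.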

Other observations

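Stanniocalcin genes are known to respond to hypoxia and to stress of the endoplasmic reticulum, and lists of genes for both responses were examined. Of 14 tested genes induced by hypoxia, 1 rose and none fell, beside 8.51% DEGs among all genes tested, and nothing is read from this count. HK2, a hexokinase, was at 1.92, 4.11, and 1.85 FPKM in sham replicates 1 to 3 and 4.85, 3.25, and 9.42 FPKM in DAC replicates 4 to 6, with overlapping groups (log2 difference 0.87, SE 0.36, limma adjusted P = 0.585). PDK1, EGLN1, and BNIP3, which act in glucose oxidation, oxygen sensing, and mitophagy, had log2 differences of 0.29, −0.25, and −0.43 and were not DEGs. BNIP3 became one at −0.75 without sham replicate 2 and was at −0.20 without DAC replicate 4, and PDK1 became one at 0.34 with quantile normalization. HK2 was not a DEG without sham replicate 1, sham replicate 3, DAC replicate 4, or DAC replicate 6, nor with its variance estimated on its own.

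Of 11 tested genes induced by ATF4 and the unfolded protein response, XBP1 fell and none rose, again beside 8.51% among all genes tested. XBP1, a transcription factor of that response, was at 17.7 ± 0.891 FPKM in sham and 14.8 ± 0.419 FPKM in DAC minipigs (log2 difference −0.24, SE 0.10, limma adjusted P = 0.584). It was not a DEG with median scaling, quantile normalization, or mitochondrially encoded genes left out, and not without any one of the minipigs other than DAC replicate 4. ATF4, ATF3, and MANF had log2 differences of −0.31, 0.39, and −0.13. Without DAC replicate 5, ATF3 became a DEG at 0.75. ATF4 kept its sign and became a DEG at −0.42 without sham replicate 2, −0.40 without DAC replicate 5, and −0.34 with sample weights.

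Among markers of other cell types, CNN1 was the 1 DEG of 8 tested smooth muscle cell and pericyte markers and rose. CD163 was the 1 DEG of 6 tested leukocyte markers and fell, beside 8.51% DEGs among all genes tested. The groups of CNN1 overlapped, and those of CD163 did not (limma adjusted P = 0.553 and 0.508). CNN1 also overlaps another gene measured, so that its level is uncertain. The summed marker levels were 166 to 198 FPKM in sham and 189 to 213 FPKM in DAC minipigs for smooth muscle, and 44.3 to 47.1 and 36.3 to 50.4 FPKM for leukocytes. The 3 tested adipocyte markers and 1 tested red blood cell marker held no DEG. Among the 6 cardiomyocyte markers RYR2 fell, with overlapping groups (limma adjusted P = 0.585).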
